A study of Mus musculus with 48 samples.

Results

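Enteroendocrine cells sorted from the ileum of mice after vertical sleeve gastrectomy (VSG) were compared with those of sham-operated mice held at the same body weight. The 11 libraries of this comparison, 6 from VSG mice and 5 from weight-matched sham mice (S_wm), are all those of these groups that carry the tissue label ileum, of 48 libraries in the series. All mice were Neurod1-cre-eYFP lean males on a C57BL6 background, about 20 weeks old at surgery, single housed and given liquid diet for a week after the operation before returning to chow. In VSG mice about 70% or somewhat more of the stomach was removed, and they received vitamin B12 every week. Sham mice had the stomach sutured along the same line with nothing removed, and the S_wm mice were fed 2 times a day in amounts that held their weight at that of the VSG mice. Tissue was taken 6 weeks after surgery, after an overnight fast and about 15 min after an oral glucose load of 3 g/kg, and the ileum was the last 15 cm of the small intestine. Cells were sorted for the yellow reporter that Neurod1-driven Cre switches on and against the immune marker CD45, so the reporter also marks cells whose ancestors expressed Neurod1. The ileum of 5 sham mice fed ad libitum (S_al) and the duodenum and colon of the same VSG and S_wm mice are given beside the result where they bear on it.

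Enteroendocrine cells are scattered hormone-secreting cells of the gut epithelium, and those of the ileum are a main source of glucagon-like peptide 1, peptide YY and neurotensin, which signal meal arrival. Like other cells they carry a circadian clock, in which CLOCK and BMAL1 drive transcription of their own repressors (the PER, CRY and REV-ERB proteins) and of output factors such as DBP, and the timing of feeding is a known setting cue for gut clocks. The epithelium also answers cytokines of the interleukin 6 and interleukin 22 families through the transcription factor STAT3, which switches on acute phase genes and SOCS3, the inhibitor that shuts the same pathway down.

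Total counts per library were 4823339 to 11478914 in VSG mice and 6541470 to 7421731 in S_wm mice, with 18134 to 21265 genes having at least 1 count. The cell type label held: the summed level of 7 enteroendocrine markers (among them Neurod1, Chga and Chgb) was 35334 to 83888 CPM (read counts relative to library size) in VSG and 40936 to 51678 CPM in S_wm libraries. Markers of other epithelial cells were present too. The sum of 15 enterocyte markers was 6081 to 21875 CPM in VSG and 9002 to 21219 CPM in S_wm libraries, that of 8 goblet cell markers 1639 to 5447 and 2328 to 6192 CPM, and that of 9 Paneth cell markers 1212 to 3839 and 1882 to 2981 CPM. Immune markers were low, at a sum of 1.42 to 32 CPM in VSG and 5.89 to 30.7 CPM in S_wm libraries over 13 genes, and 8 of those 13 had means under 1 CPM. Mitochondrial transcripts took 8.79% to 20.3% of counts in VSG and 14.3% to 16.9% in S_wm libraries. The ranges of all these sums overlapped between the groups. In RNA pooled from sorted cells, fewer cells of a type and less RNA per cell cannot be told apart.

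In the ileum, 7 genes differed between VSG and S_wm mice. Dbp, a clock output factor, and Nr1d1, which encodes the clock repressor REV-ERB alpha, were lower in VSG than in S_wm mice. So were Maob, a monoamine-degrading enzyme, and Abat, the enzyme that breaks down GABA. Socs3 and Lrg1, both known STAT3 target genes, and Ctu2, which helps to thiolate the wobble uridine of transfer RNAs, were higher. Of the 15126 genes tested with edgeR's quasi-likelihood test at a Benjamini-Hochberg adjusted p under 0.05, these 7 were 0.0463%, with 3 higher and 4 lower. Without adjustment 965 genes had p under 0.05. Over all tested genes the median log2 fold change was 0.01 and 51.2% of values were above 0. The 2 groups did not overlap in 5 of the 7 genes, against 0.549% of all tested genes (83 genes). The 7 genes were chosen by p on these same libraries, so their separation follows from that choice. The number of called genes was 1 or 2 without S_wm mouse 16, 21, 27 or 31 or VSG mouse 11, 22 or 28, and it was 12 without VSG mouse 30. DESeq2, the tool of the study's methods, called 21 genes, whereas edgeR called 3 with no filter on low counts and 1, Dbp, in a fit of the 11 compared or the 16 ileum libraries alone.

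**Figure D1:**
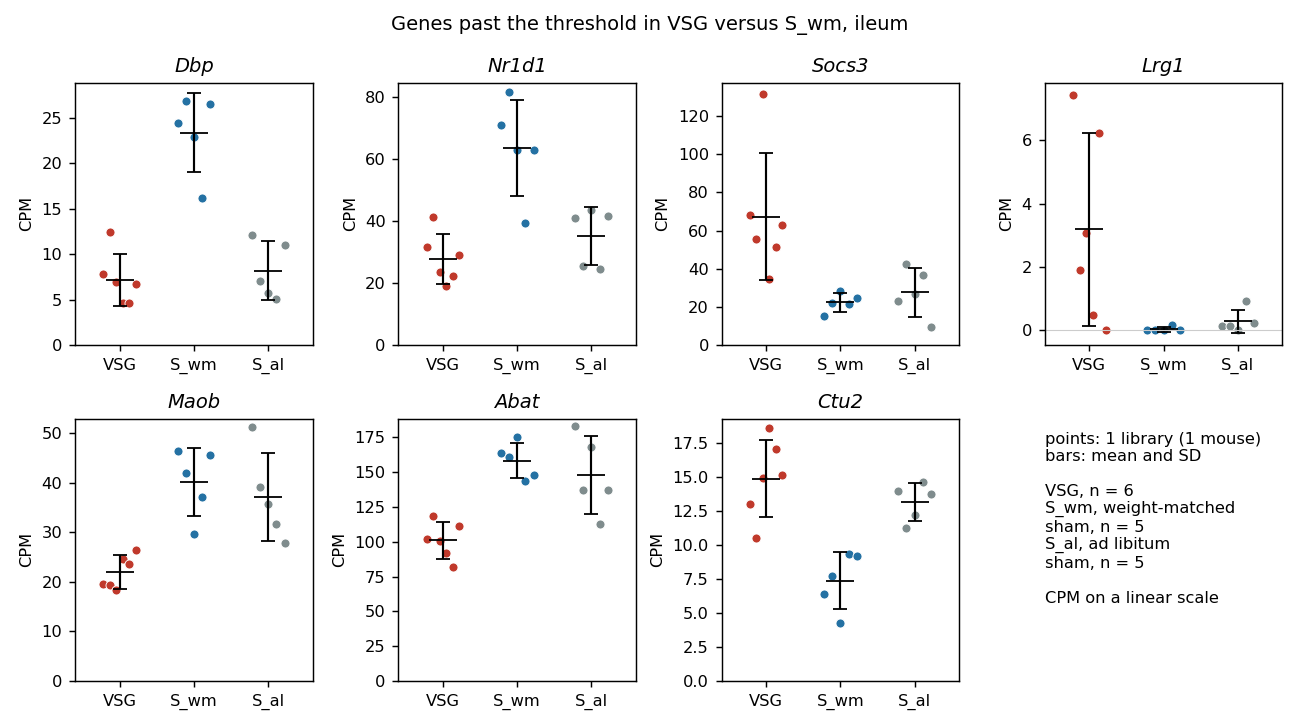
Level of the 7 called genes in every ileum library, in CPM on linear axes, with VSG (n = 6), S_wm (n = 5) and S_al (n = 5) side by side, 1 point per mouse, and bars for the mean and SD. For Dbp and Ctu2 all S_wm points stand away from both other groups, as do those for Nr1d1 except mouse 29, whereas for Maob, Abat, Socs3 and Lrg1 most VSG points do.

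DBP is a PAR bZIP transcription factor whose level follows the clock closely. Dbp (ENSMUSG00000059824, GRCm38 chromosome 7, 45705088 to 45710203, plus strand) was at 7.79, 12.4, 6.97, 4.64, 4.57 and 6.70 CPM in VSG mice 11, 18, 22, 25, 28 and 30. In S_wm mice 16, 21, 27, 29 and 31 it was at 24.5, 26.9, 22.9, 16.2 and 26.6 CPM. Every VSG library lay below every S_wm library. The means were 7.18 ± 2.88 CPM (SD, n = 6) and 23.4 ± 4.35 CPM (n = 5), a log2 fold change of -1.66 (SE 0.273, 95% interval -2.21 to -1.11, edgeR adjusted p = 0.00302). Dbp passed the threshold with each of the 11 libraries left out in turn.

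REV-ERB alpha represses Arntl, the gene for BMAL1, and competes with ROR factors for the same DNA element. Nr1d1 (ENSMUSG00000020889, chromosome 11, 98767932 to 98775333, minus strand) was at 31.7, 41.4, 23.6, 19, 22.3 and 29 CPM in VSG mice 11, 18, 22, 25, 28 and 30. It was at 71.0, 81.5, 62.9, 39.2 and 62.9 CPM in S_wm mice 16, 21, 27, 29 and 31. The highest VSG library (mouse 18) lay above the lowest S_wm library (mouse 29), and the other 5 VSG libraries lay below all S_wm libraries. The log2 fold change was -1.18 (SE 0.237, 95% interval -1.65 to -0.70, edgeR adjusted p = 0.0313). Without any one of S_wm mice 16, 21, 27 and 31 or VSG mice 11, 22, 25 and 28, the edgeR adjusted p of Nr1d1 was 0.0674 to 0.152. Nr1d1 overlaps Thra and Dbp overlaps Sphk2 on the opposite strands. These neighbours had log2 fold changes of -0.27 for Thra (edgeR adjusted p = 0.756) and -0.25 for Sphk2 (edgeR adjusted p = 0.842). The counts keep the strands apart: of 454 genes lying wholly inside exons of the opposite strand 67.4% had counts, against 2.48% of 686 genes wholly inside exons of the same strand.

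The promoters of the called clock and STAT3-list genes are shown because these are the lists with a called pair of related genes. RefSeq windows of GRCm38.p6 (250 bases before to 50 after the gene start) were matched for 5 of the 7 called genes, and only the longest stretch before the RefSeq start that lies outside every annotated exon is printed, 5′ to 3′ on the gene's strand, with motif matches in capitals. Dbp is chr7:45704997-45705087 on the plus strand, Nr1d1 chr11:98775378-98775627 minus, Socs3 chr11:117969452-117969616 minus and Lrg1 chr17:56122002-56122196 minus. The Socs3 stretch lies within the annotated gene, in an intron of a longer non-coding transcript, and the other 3 lie before the first exon of every transcript.
Dbp: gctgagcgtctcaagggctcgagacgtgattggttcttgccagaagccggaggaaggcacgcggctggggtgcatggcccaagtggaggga
Nr1d1: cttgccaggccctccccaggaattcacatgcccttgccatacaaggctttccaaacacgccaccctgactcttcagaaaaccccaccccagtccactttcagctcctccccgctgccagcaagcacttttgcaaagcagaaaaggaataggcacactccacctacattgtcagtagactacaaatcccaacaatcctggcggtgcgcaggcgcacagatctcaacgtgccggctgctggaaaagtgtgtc
Socs3: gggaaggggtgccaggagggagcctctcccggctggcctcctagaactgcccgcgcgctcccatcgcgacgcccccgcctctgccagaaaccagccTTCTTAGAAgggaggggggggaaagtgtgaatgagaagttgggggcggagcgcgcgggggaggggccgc
Lrg1: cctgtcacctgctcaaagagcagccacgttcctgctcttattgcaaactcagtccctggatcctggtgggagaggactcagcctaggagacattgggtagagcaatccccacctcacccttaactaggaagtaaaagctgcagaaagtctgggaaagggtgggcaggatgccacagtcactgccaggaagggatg
The motifs searched on both strands were the E-box CACGTG, the D-box TTANGTAA, the ROR element AGGTCA and the STAT motif TTCNNNGAA. The capitals in Socs3 mark a STAT motif 154 bases upstream of the RefSeq start, and 8.3% of all 32851 windows of 300 bases hold one. The Dbp window held another, TTCCGCGAA at 99 bases upstream of its RefSeq start, in the part that is not printed. No other match was found in the 5 windows. Over all windows the E-box was present in 7.15%, the D-box in 2.32% and the ROR element in 16.3%. A match is a description of the letters and no evidence of binding.

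Beyond Nr1d1, none of the other 17 core clock genes passed, and beyond Dbp none of the other 5 output genes. The core list had a median log2 fold change of -0.13 with 8 of 18 values above 0, and the output list -0.44 with 2 of 6. Nr1d2, the gene for REV-ERB beta, was the next by p: it was at 18.5 to 32.2 CPM in VSG and 35.1 to 41.9 CPM in S_wm libraries without overlap, with a log2 fold change of -0.61 (edgeR adjusted p = 0.258). Tef, a relative of Dbp, had -0.67 (SE 0.201, edgeR adjusted p = 0.364). Arntl, which REV-ERB proteins repress, had 0.65 (SE 0.222, edgeR adjusted p = 0.531), and Nfil3, the repressor that competes with DBP for D-boxes, had 1.02 (SE 0.314, edgeR adjusted p = 0.401). The values for Per3 were -0.60, for Ciart -1.85 and for Bhlhe41 -1.22, the latter pair at means under 2 CPM. The clock's other core genes lay between -0.35 (Rora) and 0.32 (Npas2), with Clock at -0.18, Per1 at 0.29, Per2 at -0.14, Cry1 at 0.17 and Cry2 at 0.01. In the output list Hlf had -0.84, Usp2 -0.21 and Wee1 0.03, and none of these intervals excluded 0.

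**Figure D2:**
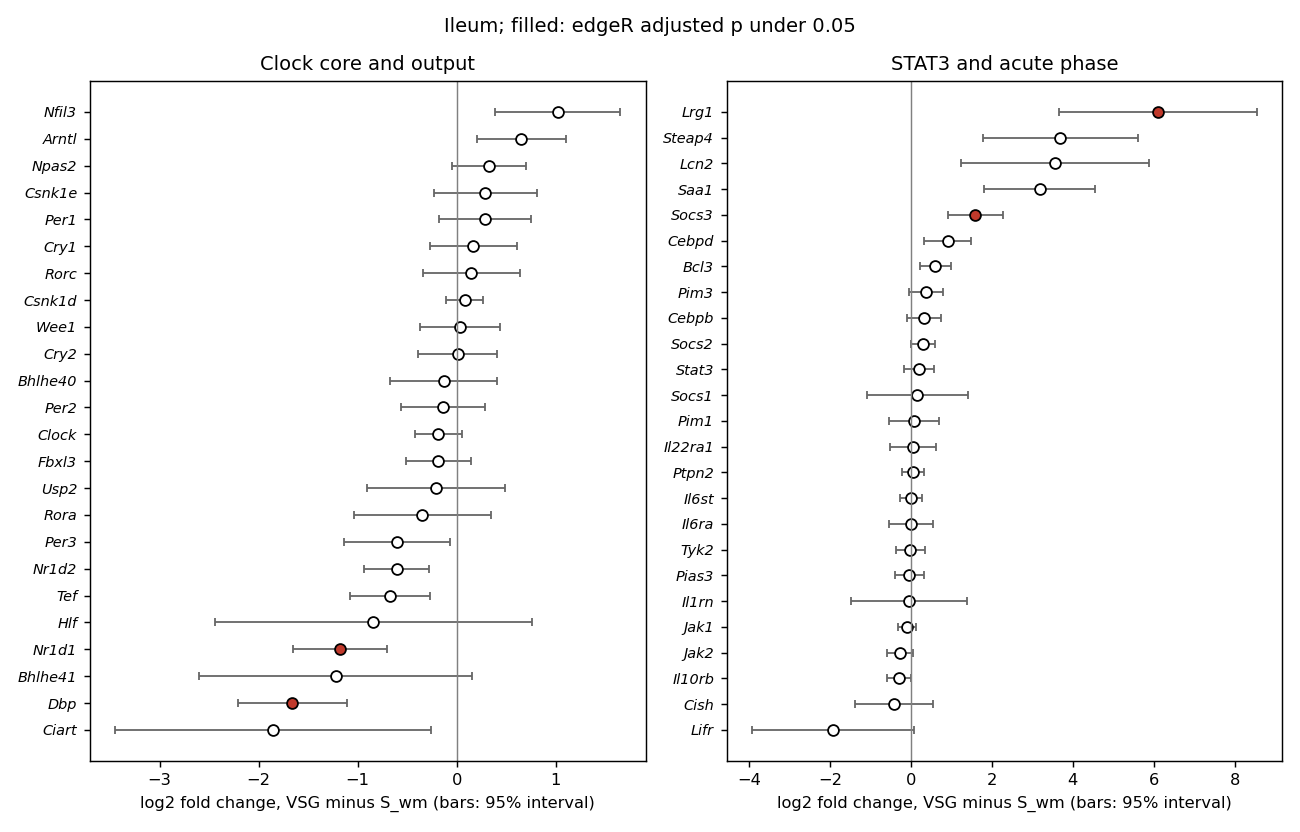
Log2 fold change of VSG minus S_wm in the ileum for all tested members of the clock core and output lists (left) and all but 1 of the STAT3 and acute phase list (right), with 95% intervals as bars. Filled points (Dbp, Nr1d1, Socs3, Lrg1) passed an edgeR adjusted p of 0.05, and the axes of the 2 panels differ in range.

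SOCS3 binds JAK kinases and their receptors and ends STAT3 signalling. Socs3 (ENSMUSG00000053113, chromosome 11, 117966079 to 117970047, minus strand) was at 68.4, 55.8, 132, 34.4, 51.4 and 62.7 CPM in VSG mice 11, 18, 22, 25, 28 and 30. In S_wm mice 16, 21, 27, 29 and 31 it was at 15.1, 22.2, 28.4, 21.6 and 24.6 CPM. All 6 VSG libraries lay above all 5 S_wm libraries. The means were 67.4 ± 33.5 CPM (SD, n = 6) and 22.4 ± 4.86 CPM (n = 5), with a log2 fold change of 1.59 (SE 0.335, 95% interval 0.92 to 2.26, edgeR adjusted p = 0.0473). Without VSG mouse 22, the highest library, the log2 fold change of Socs3 was 1.28 (edgeR adjusted p = 0.281). Without any one of the 5 S_wm mice or VSG mice 11 and 28, the edgeR adjusted p was 0.105 to 0.188.

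LRG1 is a secreted leucine-rich glycoprotein of the acute phase. Lrg1 (ENSMUSG00000037095, chromosome 17, 56119678 to 56122001, minus strand) had 64, 24, 22, 2, 34 and 0 counts in VSG mice 11, 18, 22, 25, 28 and 30. Among S_wm mice only mouse 29 had a count, a single one. These were 7.44, 1.90, 3.07, 0.488, 6.22 and 0 CPM in VSG libraries, so the gene was detected in 5 of 6 VSG mice at levels that differed widely among them. Pooled over libraries, 146 counts against 1 gave a ratio of 116 with an exact counting interval of 20.6 to 4629, which covers counting error only. The edgeR adjusted p was 0.0313, and the fitted log2 fold change of 6.10 depends on the prior count. In limma voom with the mouse number as a block, Lrg1 did not pass (limma voom adjusted p = 0.0568). With any 1 of the S_wm libraries left out, the edgeR adjusted p of Lrg1 was 0.0540 to 0.140. In 4 of the 6 fits without 1 VSG library Lrg1 did not pass the filter on low counts.

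Of the 26 tested members of the STAT3 and acute phase list, Lrg1 and Socs3 were higher and none lower. The median log2 fold change was 0.06 and 15 values were above 0. Lrg1 met the filter on low counts only through VSG libraries, so in the ileum it could only be called higher. Among these was the duodenum library of VSG mouse 28 (1.51 CPM), and in fits of ileum libraries alone Lrg1 did not meet the filter. In 4 of the 26, Socs3 among them, the groups did not overlap, against 0.549% of all tested genes. This list, too, was written with earlier results of these data known, so the share is no test. Saa1, the gene for the acute phase protein serum amyloid A1, was at 3.07 to 58.6 CPM in VSG and 0.480 to 3.83 CPM in S_wm libraries, with a log2 fold change of 3.18 (SE 0.682, edgeR adjusted p = 0.0568). Lcn2, which encodes an iron-sequestering antibacterial protein, was at 1.49 to 9.14 CPM in VSG and 0 to 1.14 CPM in S_wm libraries without overlap (edgeR adjusted p = 0.475). Bcl3 had 0.60 and Cebpd 0.90 on the log2 scale, also without overlap (edgeR adjusted p = 0.438 and 0.463). Steap4 had 3.69 with VSG libraries from 0 to 26.9 CPM (edgeR adjusted p = 0.241). Most signalling components had values nearer 0, with Stat3 at 0.20, Jak1 at -0.10, Jak2 at -0.28 and Tyk2 at -0.03. The shared receptor Il6st had -0.01, Il6ra -0.01, Il22ra1 0.05 and Il10rb -0.30, whereas the receptor Lifr had -1.94, the lowest value of the list. Other feedback inhibitors had values of 0.16 for Socs1, 0.29 for Socs2, -0.43 for Cish, 0.04 for Ptpn2 and -0.04 for Pias3. Pim1 had 0.07, Pim3 0.36, Cebpb 0.33 and Il1rn -0.05, and none of these signalling genes, inhibitors and targets passed.

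Maob (ENSMUSG00000040147, chromosome X, 16709282 to 16817366, minus strand) encodes monoamine oxidase B of the outer mitochondrial membrane. It was at 19.6, 19.3, 18.3, 24.6, 23.6 and 26.5 CPM in VSG mice 11, 18, 22, 25, 28 and 30, and at 46.5, 42.0, 29.7, 37.1 and 45.7 CPM in S_wm mice 16, 21, 27, 29 and 31. The groups did not overlap. The log2 fold change was -0.88 (SE 0.165, 95% interval -1.21 to -0.55, edgeR adjusted p = 0.0209). Without any one of S_wm mice 16, 21 and 31 or VSG mice 11 and 22, the edgeR adjusted p of Maob was 0.0674 to 0.123. Of the 10 monoamine genes tested, Maob fell, none rose, and the median log2 fold change was -0.16 with 2 values above 0. The vesicular monoamine transporter gene Slc18a2 had -0.78 (edgeR adjusted p = 0.767) and the serotonin transporter gene Slc6a4 -0.43 (edgeR adjusted p = 0.857), both with overlapping groups.

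Abat (ENSMUSG00000057880, chromosome 16, 8513429 to 8621568, plus strand) encodes GABA transaminase. It was at 102, 119, 100, 91.8, 82.1 and 112 CPM in VSG mice 11, 18, 22, 25, 28 and 30, and at 164, 161, 175, 143 and 148 CPM in S_wm mice 16, 21, 27, 29 and 31. The groups did not overlap, with means of 101 ± 13.2 CPM (SD, n = 6) and 158 ± 12.8 CPM (n = 5). The log2 fold change was -0.65 (SE 0.131, 95% interval -0.91 to -0.38, edgeR adjusted p = 0.0313). Without any one of S_wm mice 16, 21, 27 and 31 or VSG mice 11, 22, 25 and 28, the edgeR adjusted p of Abat was 0.0674 to 0.152. Abat belonged to none of the gene lists.

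Ctu2 (ENSMUSG00000049482, chromosome 8, 122476143 to 122484138, plus strand) encodes a subunit of the cytosolic thiouridylase. It was at 13, 10.5, 14.9, 18.5, 17 and 15.1 CPM in VSG mice 11, 18, 22, 25, 28 and 30, and at 6.41, 7.72, 4.26, 9.29 and 9.16 CPM in S_wm mice 16, 21, 27, 29 and 31. Every VSG library lay above every S_wm library. The log2 fold change was 1.0 (SE 0.209, 95% interval 0.58 to 1.42, edgeR adjusted p = 0.0420). In limma voom with the mouse number as a block, Ctu2 did not pass (limma voom adjusted p = 0.111). The same 8 omissions as for Abat gave Ctu2 an edgeR adjusted p of 0.0674 to 0.250. Of 15 tested genes for wobble uridine modification, Ctu2 rose and none fell, with a median of -0.01 and 7 values above 0. Its partner subunit Ctu1 had 0.42 (edgeR adjusted p = 0.842). Piezo1, on the opposite strand of the Ctu2 locus, had 0.35 (edgeR adjusted p = 0.964).

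Among the genes that were not called, those of lowest p with higher values after VSG were Saa1, Asns, Eif4ebp1, Tmem252 and Cfi. Asns, the asparagine synthetase gene that amino acid shortage switches on, was at 49.6 to 91.6 CPM in VSG and 35.2 to 52.1 CPM in S_wm libraries, with a log2 fold change of 0.78. Eif4ebp1, a translational repressor gene, had 1.2, and both had an edgeR adjusted p of 0.0568. Tmem252 had 0.98 and Cfi, which encodes complement factor I, 1.10 (edgeR adjusted p = 0.107 for each). The groups did not overlap for Eif4ebp1, Tmem252 and Cfi. On the other side, Slc5a4b, a sodium-coupled sugar transporter family gene, was at 10.5 to 38.93 CPM in VSG and 40.5 to 79.9 CPM in S_wm libraries without overlap (log2 fold change -1.57, SE 0.338, edgeR adjusted p = 0.0568). Map7d2 had 0 counts in all 6 VSG libraries and 52 in S_wm libraries, of which 48 came from mouse 27, so the exact counting interval of the ratio of VSG to S_wm reached up to 0.0586 (edgeR adjusted p = 0.120). Lmo1 had -2.49 and Scin -0.80 (edgeR adjusted p = 0.242 and 0.258). Spock3 had 2 counts in VSG and 43 in S_wm libraries, a ratio of 0.0371 with a counting interval of 0.00435 to 0.142 (edgeR adjusted p = 0.256). Mouse 27 also held the most S_wm counts of Lmo1 and Spock3.

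Antimicrobial and epithelial defence genes lay mostly above 0, although none passed. Of the 19 tested members of the mucosal defence list, 17 had log2 fold changes above 0, with a median of 0.66 against 0.01 over all tested genes, and 9 had an unadjusted p under 0.05, against 965 of all 15126. In 6 of the 19 the groups did not overlap, against 0.549% of all tested genes. The list was written with earlier results of these data known, so these shares describe it and are no test. The lowest value was that of Reg3a, at -0.96. Tifa, an adaptor of NF-kappaB signalling, was at 84.7 to 254 CPM in VSG and 55.1 to 75.1 CPM in S_wm libraries (log2 fold change 1.31, edgeR adjusted p = 0.107). Zc3h12a, a ribonuclease gene that limits inflammatory transcripts, had 0.99 (edgeR adjusted p = 0.258), and Nfkbiz, an inhibitor-like partner of NF-kappaB, 0.77 (edgeR adjusted p = 0.364). The sum of the Paneth cell markers given above overlapped between the groups, and its part in these values was not tested.

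Immediate early genes, which cells switch on within minutes of a stimulus or of handling, lay mostly above 0 as well, with wide spread. Of 21 tested, 18 had log2 fold changes above 0, against 51.2% of all tested genes, and the median log2 fold change was 0.64. An unadjusted p under 0.05 was found in 8, against 965 of all 15126, and none passed. This list, too, was written with earlier results of these data known, so these shares are no test. Without VSG mouse 18 the median of the list was 0.28. Arc was at 8.37 to 125 CPM in VSG and 0.71 to 16.2 CPM in S_wm libraries (log2 fold change 2.37, SE 0.769, edgeR adjusted p = 0.483). Junb had 0.82 and Ier5 0.64 (edgeR adjusted p = 0.608 for each). In none of the 21 were the groups apart. In the list of unfolded protein and integrated stress genes none of 25 passed, with a median of 0.10 and 14 values above 0. Of the 25, 5 had an unadjusted p under 0.05. Asns, given above, had the lowest p of this list, at 0.78 (edgeR adjusted p = 0.0568). Sdf2l1 had 0.56 (edgeR adjusted p = 0.685) and Pdia6 0.28 (edgeR adjusted p = 0.755). That list was likewise written with earlier results of these data known.

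**Figure D3:**
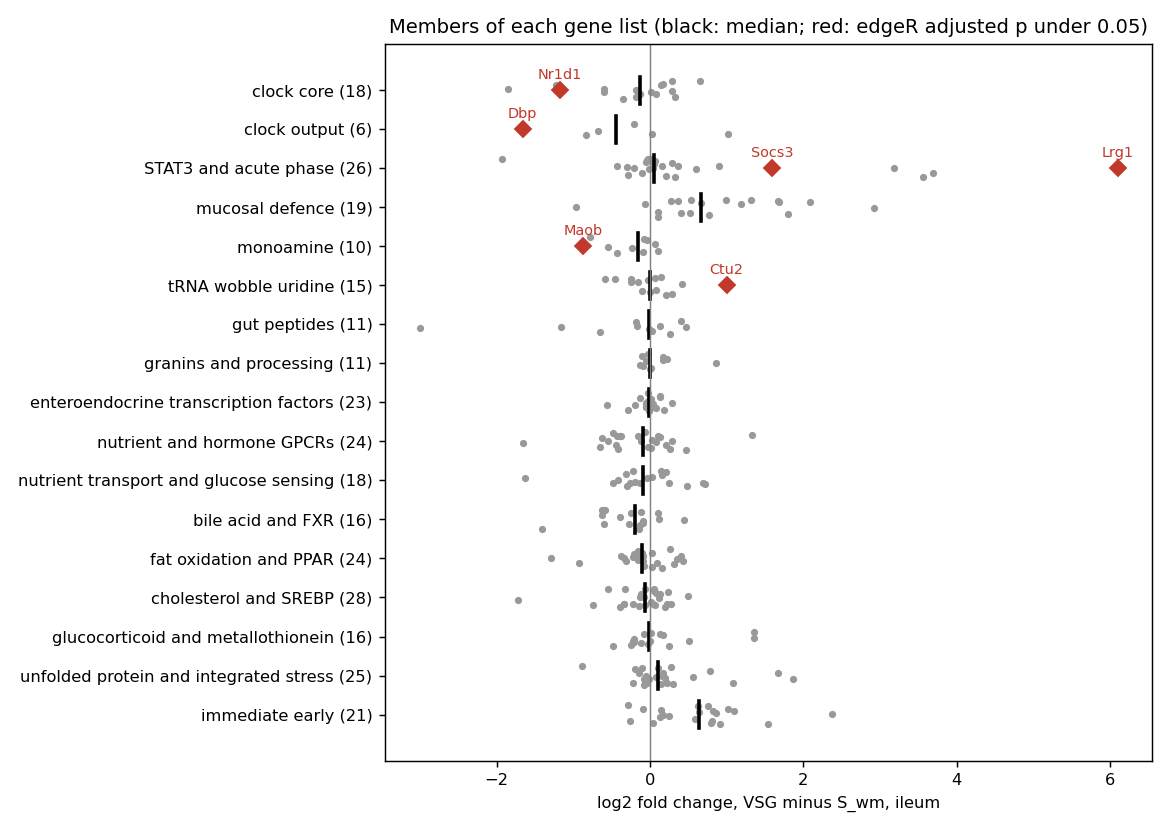
Log2 fold change of VSG minus S_wm in the ileum for every tested member of the 17 gene lists, with the number tested in parentheses and a black bar at each list's median. Red diamonds are the members past an edgeR adjusted p of 0.05; the medians of the mucosal defence (0.66) and immediate early (0.64) lists lie farthest from 0.

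The hormone genes that define these cells did not pass in either direction. None of 11 gut peptide genes was called, with a median log2 fold change of -0.01 and 5 values above 0, and the groups overlapped in every one. Gcg, which encodes proglucagon, had a median of 904 CPM (644 to 1513) in VSG and 831 CPM (571 to 3748) in S_wm libraries, with a log2 fold change of -0.65 (95% interval -1.54 to 0.25). Pyy had -0.18 (-0.99 to 0.63) and Nts, the neurotensin gene, -0.17 (-0.89 to 0.55). The intervals of Cck (0.26, -0.45 to 0.98), Gip (0.13, -1.04 to 1.30), Sst (0.03, -0.995 to 1.06), Sct (-0.01, -0.63 to 0.61), Ghrl (0.48, -0.42 to 1.37), Tac1 (0.40, -0.32 to 1.11) and Insl5 (-1.16, -2.69 to 0.37) also included 0. These intervals do not exclude changes of 1 log2 unit in several of the genes. Gast had 4 counts in a single S_wm library and none elsewhere in the comparison, so no fold is given.

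**Figure D4:**
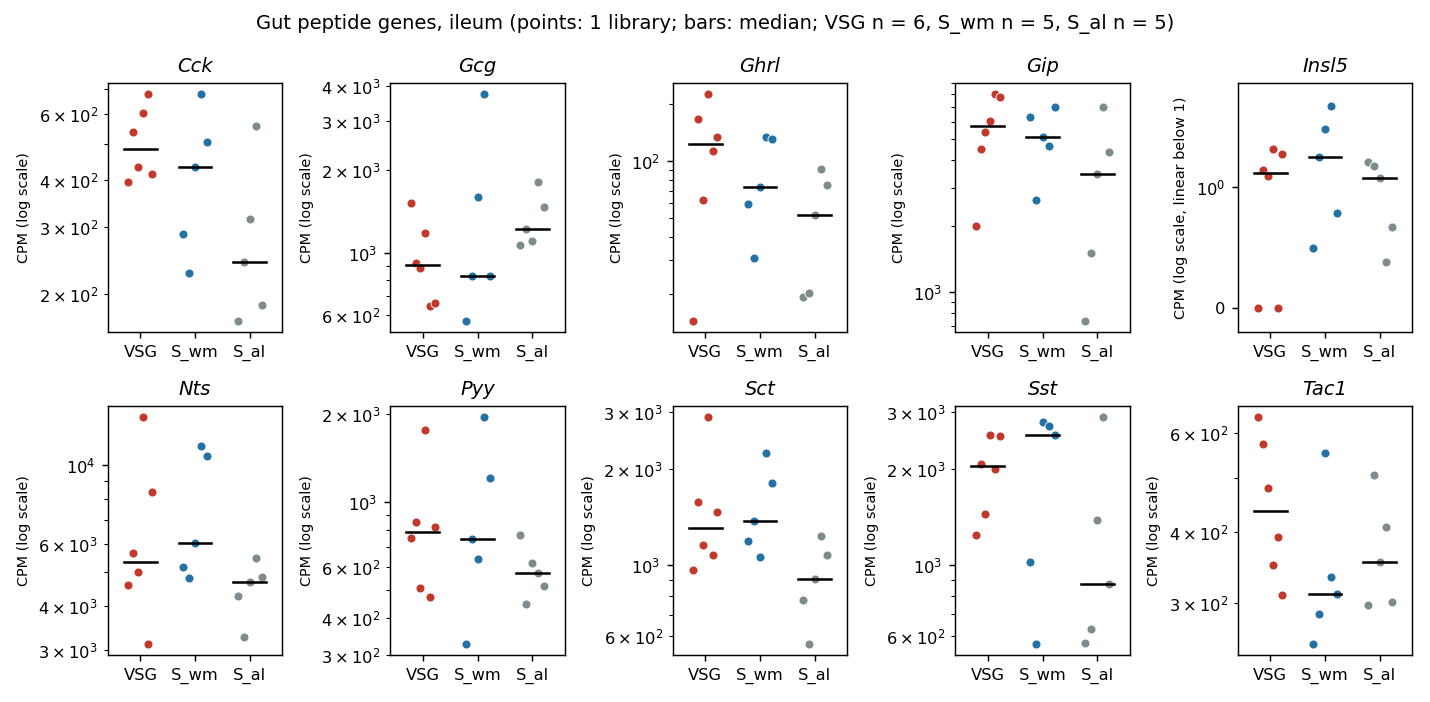
Level of 10 gut peptide genes in every ileum library, in CPM on log axes (linear below 1 for Insl5), with 1 point per mouse and a bar at the median of VSG (n = 6), S_wm (n = 5) and S_al (n = 5). The VSG and S_wm points overlap in every panel.

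Other endocrine lists gave no calls. Of the granins and processing enzymes none of 11 passed (median -0.0050, with Chga at 0.22, Vgf at 0.16 and Pcsk2 at 0.86), of the enteroendocrine transcription factors none of 23 (median -0.01, with Etv1 at -0.56 and Foxa2 at 0.28), and of the nutrient and hormone receptors none of 24 (median -0.09, with Casr at -0.54, Gper1 at -0.65 and Mc4r at -1.66). Of the nutrient transport and glucose sensing genes none of 18 passed (median -0.09), and the lowest p values were those of the amino acid transporter Slc7a5 (0.71, edgeR adjusted p = 0.370), the nucleoside transporter Slc28a1 (-1.62) and the glucose transporter Slc2a1 (0.48). Among bile acid and FXR genes none of 16 passed, with 3 values above 0 and a median of -0.19; Abcc3 had -0.24, Slc51a -0.63 and Nr0b2 -1.41 on 3 and 8 counts. None of 24 fat oxidation genes passed (median -0.10, with Cd36 at -0.93, Acadl at 0.31 and Ppara at -0.38), and none of 28 cholesterol genes (median -0.07, with Stard4 at -0.54, Scd2 at -0.74 and Scd1 at -1.73). None of 16 glucocorticoid and metallothionein genes passed (median -0.01, with Dusp1 at 1.35, Nr3c2 at -0.48 and Zbtb16 at 1.35). Enterocyte markers had a median of -0.46 with 3 of 15 values above 0 and none past the threshold; their part in the metabolic lists was not tested. The most counted transcripts in these libraries were mt-Rnr2, Gm42418, mt-Rnr1, Gm23935 and Chgb, with log2 fold changes of 0.09, 0.19, 0.03, 0.42 and 0.16.

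Set beside the ileum of ad libitum fed sham mice, the 7 genes divided into those whose S_wm mean stood away from the other groups and those whose VSG mean did. These contrasts share libraries with the main one. The S_wm mice were fed 2 times a day to hold their weight, so surgery and feeding schedule cannot be told apart in the main contrast. The study's methods give no time of day for the collection of mouse tissue, so its part in the values of the clock genes was not tested. In S_al mice Dbp was at 5.05 to 12.1 CPM, a mean of 8.20 CPM beside 7.18 CPM in VSG and 23.4 CPM in S_wm mice. The log2 fold change of Dbp was -0.16 in VSG against S_al and 1.5 in S_wm against S_al (edgeR adjusted p = 0.994 and 0.0670). Nr1d1 had -0.32 and 0.86 in the same order, and Ctu2 0.17 and -0.83. Maob instead had -0.77 and 0.11 (edgeR adjusted p = 0.140 and 0.916), Abat -0.55 and 0.10, and Socs3 1.28 and -0.31. Lrg1 counts in the S_al mice were 1, 1, 0, 5 and 1. Over all 15126 genes neither contrast with S_al gave a call by edgeR (0% each), although 932 genes for VSG and 1188 for S_wm had an unadjusted p under 0.05. With DESeq2 5 genes passed for VSG against S_al, all lower in VSG and Maob among them, and 6 passed for S_wm against S_al, with Dbp higher in S_wm mice (adjusted p = 0.0276 for Maob and 0.00345 for Dbp). The ileum and colon libraries of S_al mouse 12 carry crossed description codes, and the tissue label was used. Without both, the edgeR adjusted p of the main comparison was 0.0550 for Ctu2 and 0.0557 for Socs3, and the other 5 genes passed.

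The same VSG and S_wm mice also gave duodenum and colon libraries. There, 34 of 15126 genes (0.225%) passed in the duodenum and 9 (0.0595%) in the colon. Dbp fell in all 3 regions, with log2 fold changes of -1.35 in the duodenum and -1.84 in the colon (edgeR adjusted p = 0.0133 and 8.80e-05). Nr1d1 was lower than in S_wm mice in the duodenum by 1.30 on the log2 scale (edgeR adjusted p = 0.0112). In the colon Nr1d1 had -0.97 (edgeR adjusted p = 0.160). Maob had -0.65 in the duodenum (edgeR adjusted p = 0.0549) and -0.24 in the colon. The other 4 genes had values nearer 0 outside the ileum: Abat had -0.19 and -0.02, Ctu2 0.23 and 0.13, Socs3 0.43 and 0.33, and Lrg1 0.45 and -0.22 in the duodenum and colon. Nr1d2, not called in the ileum, was lower in the duodenum (-0.72, edgeR adjusted p = 0.0418) and the colon (-0.76, edgeR adjusted p = 0.0389).

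Whether the change with VSG itself differed between regions was tested as an interaction, and no gene passed for the ileum against the duodenum (0% of 15126, 505 with an unadjusted p under 0.05) or against the colon (0%, 535) by edgeR. DESeq2 gave 0 genes (614 with an unadjusted p under 0.05) for the duodenum and 1 for the colon (613 with an unadjusted p under 0.05). That gene was Myrfl, named after its values were seen, with a difference of -2.33 on the log2 scale (DESeq2 adjusted p = 0.0137). For Socs3 the change in the ileum exceeded that in the duodenum by 1.16 (95% interval 0.23 to 2.09) and that in the colon by 1.26 (0.30 to 2.22) on the log2 scale. For Ctu2 the differences were 0.77 (0.18 to 1.35) and 0.87 (0.29 to 1.46), and for Abat -0.46 (-0.83 to -0.09) and -0.63 (-1.0 to -0.26). For Dbp they were -0.31 (-1.08 to 0.46) and 0.18 (-0.58 to 0.94). These intervals are not adjusted for the number of genes, and their fit holds no term for the mouse, although the regions share mice. The lowest edgeR adjusted p of any gene was 0.921 against the duodenum and 0.930 against the colon. None of the 7 ileal changes is therefore shown to be particular to the ileum.

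**Figure D5:**
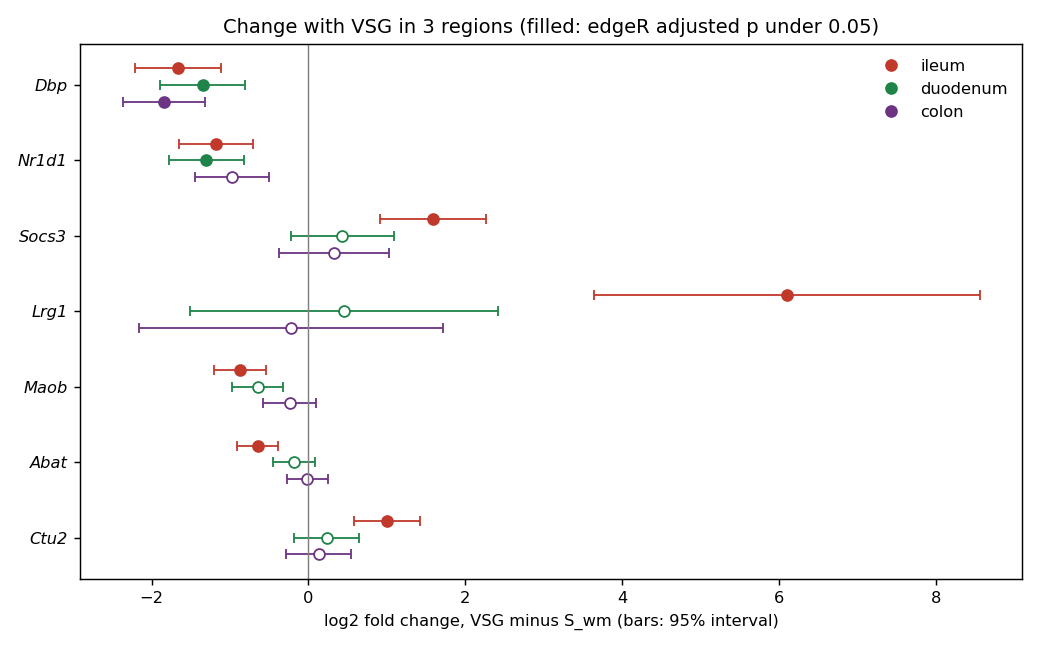
Log2 fold change of VSG minus S_wm for the 7 genes called in the ileum, in the ileum, duodenum and colon of the same mice, with 95% intervals as bars and filled points for an edgeR adjusted p under 0.05. Dbp lies below 0 in all 3 regions, whereas Socs3, Abat and Ctu2 lie closer to 0 in the duodenum and colon than in the ileum.

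The libraries carried either index D501 or index D503 in both groups. Within the D501 libraries (VSG mice 18, 22 and 25, S_wm mice 16 and 21) the differences in mean log2 CPM were -1.76 for Dbp, -1.51 for Nr1d1, 1.77 for Socs3, 2.69 for Lrg1, -1.09 for Maob, -0.66 for Abat and 0.99 for Ctu2. Within the D503 libraries they were -1.74, -0.97, 1.28, 2.90, -0.67, -0.66 and 1.04 in the same order. For Dbp, Socs3, Maob, Abat and Ctu2, whose groups did not overlap, any split of these libraries keeps the direction. For these genes the split is therefore no test of the index.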

How the data were processed

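RNA of reporter-positive, CD45-negative cells was sequenced by the authors as stranded total RNA libraries, aligned to GRCm38 and counted per Ensembl gene with STAR 2.5.1. The authors deposited these counts as whole numbers, unnormalized, for 48 libraries of 17 mice. Of 53465 gene identifiers, 53360 were matched to GENCODE M21 for symbols and coordinates. The human samples were not used here.

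Groups and regions came from the labels. All 48 libraries were fitted with edgeR 4.0.16 under R 4.3.3 (filterByExpr, TMM, 1 mean per group of surgery and region, robust quasi-likelihood test, Benjamini-Hochberg adjustment over 15126 genes at 0.05). The standard error of a log2 fold change is its size over the root of its F statistic. CPM are the counts scaled by TMM, with 2 added counts for log2 CPM. The study's methods name DESeq2, here an alternative (1.42.0). Other alternatives were DESeq2 size factors, voom of limma 3.58.1 with a block for mouse, other filters on low counts, fewer libraries, the library index as a term, and each library left out. VSG and S_wm groups hold different mice, so their contrast is not paired. Across regions the mouse number, read from the description codes, was taken to mark 1 animal. Over 22 pairs of an ileum library with another of its number, deviations from the group means correlated at a median of 0.114 (-0.029 to 0.391, 14 pairs over 0.1). Pairs of different mice were not correlated, so these values are no test of the numbers. No pair within a group was a duplicate (lowest chi-square per gene 18.8 over 25 pairs). Each library was searched with Dixon's ratio. The VSG against S_wm contrast in the ileum was first run on simulated data with edgeR, DESeq2 and limma voom, and the other contrasts were not.

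Genes were named by rule: every called gene, the 5 of lowest p per direction that were not called, called members and the 3 of lowest p of each list, all gut peptide, clock and STAT3 members, genes called in the region differences, and the 5 with the most counts; 2 of these, neither called, are not reported here. The comparison, lists and rule were chosen with earlier results of these data known. Counting intervals are exact at 95% and cover counting error only. Promoters are from RefSeq on GRCm38.p6.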

Additional observations from a re-analysis of the deposited data

Results flagged for a closer look

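In 62 searches of a group of 5 or 6 libraries for a value far from the others, 8 were found, and chance alone flags about 1 in 20. Among the VSG libraries, that of mouse 22 stood apart for Socs3 (131.5 CPM, the next highest being 68.4 CPM), and that of mouse 25 for Sct (2906 CPM, next 1574 CPM) and Pyy (1754 CPM, next 852 CPM). Sct encodes secretin, and Pyy encodes peptide YY. Among the S_wm libraries, mouse 27 stood apart for Tac1 (554 CPM, next 333 CPM), the gene for substance P. Lrg1 at 0.160 CPM in mouse 29 and Gast at 0.657 CPM in mouse 16 were the sole libraries of their group with a count. The total count of mouse 31 was 7421731, next to 6655692. The sum of immune markers was 30.7 CPM in mouse 21, against 9.37 CPM in the next library. Without mouse 22, Socs3 had a log2 fold change of 1.28 (edgeR adjusted p = 0.281).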

How the results depend on the processing

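Of the 7 called genes, only Dbp passed under all 21 alternatives (log2 fold change -1.91 to -1.56), whereas Maob passed under 13, Abat and Nr1d1 under 9, Socs3 under 8, and Ctu2 and Lrg1 under 7. Lrg1 was tested in 13 of the 21. No direction changed. Against 7 genes, DESeq2's test called 21 (13 higher and 8 lower, all 7 included), no filter on low counts 3, the 16 ileum libraries alone 1, the 11 compared libraries alone 1, and these 11 with the library index as a term 1. The cause of these differences was not tested. The fits of fewer libraries also tested fewer genes, 13236 with the 16 ileum libraries and 12777 with the 11 compared. Leaving out 1 library at a time gave 1 to 12 genes. With the mouse number as a block, limma voom called 7, of which 5 were shared with edgeR, and Ctu2 and Lrg1 (adjusted p = 0.111 and 0.0568) were not among them. That limma voom fit also called no gene in the region differences. No tool was run both with and without the block, so the part of the block was not tested. For the colon difference DESeq2 called 1 gene and every other alternative run 0, and for the duodenum difference all gave 0. The medians of the mucosal defence and immediate early lists were above 0 under all 21 alternatives (0.53 to 0.80 and 0.28 to 0.75, the 0.28 without VSG mouse 18), and those of the gut peptides lay from -0.30 to 0.17. Groups of 5 and 6 mice limit what small changes can be called, and genes of few counts, such as Lrg1, rest on few mice.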

Other observations

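Genes called only under some alternatives were named after their values were seen. Saa1 and Slc5a4b passed under 4 of 21 alternatives, Asns and Eif4ebp1 under 3, and Vegfb, a gene of the vascular endothelial growth factor family, under 2. In S_al mice Slc5a4b was at 15.2 to 38.1 CPM, beside 10.5 to 38.93 CPM in VSG and 40.5 to 79.9 CPM in S_wm mice. Asns was at 44.7 to 72.7 CPM in S_al, 49.6 to 91.6 CPM in VSG and 35.2 to 52.1 CPM in S_wm mice.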
